A study of Mus musculus with 10 samples.

Results

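The neocortical layer marker genes are transcripts used to tell the layers of the cerebral cortex apart. The list held 35 genes chosen by name: 15 of the upper layers, 9 of layer 5, and 11 of layer 6 and the subplate. A row that named the gene alone was found for 33 of them, among 30142 genes tested, and covered 14 upper-layer genes, 8 layer 5 genes and all 11 of layer 6 and subplate. Pou3f3 and Etv1 had no such row and were not measured here. Rorb had 2 rows, and the brighter one was used, although its array identifier labels it as unmapped.

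Brain tissue was compared between the hemisphere struck by a controlled cortical impact (ipsilateral, 5 arrays) and the matching region of the opposite hemisphere (contralateral, 5 arrays). In this injury model a piston deforms the exposed cortex, here to a depth of 2 mm, and both groups came from injured adult mice of 8 to 12 weeks, 7 days after the impact. The labels give no strain, no transgene, no sham-operated animal and no statement that a number on the 2 sides marks 1 mouse. They name both sexes, whereas Xist stood between 4.53 and 4.67 on the 10 arrays, below every array median (4.71 to 4.84). The Y-linked Kdm5d stood between 7.75 and 8.07 and the Y-linked Uty between 8.60 and 8.88, so all 10 samples read as male. Each sample gave 1 Affymetrix whole-transcript array, deposited as log2 signal with 1 unit being a doubling.

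The neocortex is built of layers of excitatory projection neurons that differ in where their axons go. Upper-layer neurons mostly connect cortical areas with each other, layer 4 receives thalamic input, layer 5 holds the neurons that project to brainstem and spinal cord, and layer 6 projects to the thalamus. Transcription factors such as Cux2, Fezf2, Bcl11b and Tbr1 specify these identities during development and stay expressed in the adult. Many layer markers are also expressed outside the cortex: Bcl11b in striatal projection neurons, Foxp2 in striatum and thalamus, Rorb in thalamus, and Nr4a2 in the claustrum.

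To show the genes behind the main differences, 4 genes that passed as lower and the 1 that passed as higher in the test described below were taken. For each, the 250 bases before a transcription start are given, from RefSeq promoters on GRCm38.p6. They are printed 5′ to 3′, and capitals mark matches, on either strand, to CCAAT (the CCAAT box), GGGCGG (the GC box), ATCGAT (bound by CUX proteins), ATGCAAAT (the POU octamer), AGGTGTGA (a T-box motif), AGGTCA (the core site of nuclear receptors such as Rorb) or the MEF2 motif.
Cux2, chr5:122047826-122048075 on the minus strand: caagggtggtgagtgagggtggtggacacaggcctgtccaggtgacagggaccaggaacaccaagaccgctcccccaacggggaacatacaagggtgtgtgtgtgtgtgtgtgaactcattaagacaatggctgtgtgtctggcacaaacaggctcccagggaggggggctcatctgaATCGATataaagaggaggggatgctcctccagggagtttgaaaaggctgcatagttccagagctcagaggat
Plcxd2, chr16:46010414-46010663 on the minus strand: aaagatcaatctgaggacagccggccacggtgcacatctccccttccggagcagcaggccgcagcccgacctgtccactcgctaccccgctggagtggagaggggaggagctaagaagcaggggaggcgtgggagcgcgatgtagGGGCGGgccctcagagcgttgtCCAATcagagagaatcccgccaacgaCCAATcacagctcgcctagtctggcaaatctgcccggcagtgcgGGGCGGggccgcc
Pou3f2, chr4:22488367-22488616 on the minus strand: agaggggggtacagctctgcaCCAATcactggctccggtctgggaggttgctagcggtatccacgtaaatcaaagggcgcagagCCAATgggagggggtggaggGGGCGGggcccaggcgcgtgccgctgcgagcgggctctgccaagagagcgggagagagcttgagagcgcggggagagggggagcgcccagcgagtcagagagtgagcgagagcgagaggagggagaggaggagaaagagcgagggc
Tbr1, chr2:61804203-61804452 on the plus strand: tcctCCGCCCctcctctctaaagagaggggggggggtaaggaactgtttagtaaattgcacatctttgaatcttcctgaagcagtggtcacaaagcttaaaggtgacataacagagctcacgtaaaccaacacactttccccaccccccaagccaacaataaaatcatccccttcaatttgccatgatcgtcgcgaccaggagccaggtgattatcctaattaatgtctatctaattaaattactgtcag
Bcl11b, chr12:108003415-108003664 on the minus strand: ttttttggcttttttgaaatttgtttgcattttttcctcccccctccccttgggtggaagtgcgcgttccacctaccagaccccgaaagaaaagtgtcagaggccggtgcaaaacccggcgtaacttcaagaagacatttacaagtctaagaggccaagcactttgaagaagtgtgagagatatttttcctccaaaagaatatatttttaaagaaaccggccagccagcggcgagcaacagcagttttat
The Cux2 window shown is that of the inner of its 2 listed starts and held the 1 ATCGAT match among the 36 windows listed for 25 of the measured layer genes, against a share of 0.728% of all 32851 windows. GGGCGG occurred in 21 of the 36 windows (58.3%, against 32.7% of all windows), including those of Plcxd2, Pou3f2 and Tbr1, and the median GC content was 64% in the layer genes' windows and 52.4% in all. CCAAT was found in 8 (22.2%, against 33.8%), including Plcxd2 and Pou3f2, and AGGTCA in 6 (16.7%, against 14%). No match to the POU octamer, the T-box motif or the MEF2 motif was found in the 36 windows, against 1.6%, 1.12% and 0.508% of all. The Bcl11b window and the outer Cux2 window held none of the 7 motifs. These matches describe letters, not binding.

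Across all genes tested, 1305 were lower and 369 higher in ipsilateral tissue in limma at a Benjamini-Hochberg adjusted p under 0.05, which is the meaning of "passed" below, and 6420 had an unadjusted p under 0.05. The 1305 and 369 genes together were 5.55% of all genes tested, against 12 of the 33 layer genes. Rises made up 22% of the calls, but 9.55% (225 rises and 2130 falls) once the array medians had been set equal. Array medians over all rows were 4.79 to 4.84 ipsilaterally and 4.71 to 4.77 contralaterally. The pan-neuronal synaptic gene Snap25 (17.76 to 18.50) and the cortical vesicular glutamate transporter Slc17a7 (14.04 to 14.72) were bright on all 10 arrays. The arrays numbered 2 and 4 stood apart on both sides in Ttr, the choroid plexus transcript for transthyretin, at 15.87 and 13.64 ipsilaterally and 16.54 and 12.66 contralaterally, against 5.83 to 6.80 and 7.19 to 7.55 on the others, so counts are also given without these 4 arrays.

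Upper-layer genes were mostly lower at the impact site, while few genes of the deeper layers passed. Of the 14 measured upper-layer genes, 9 fell and none passed upward (64.3% lower, where 4.33% of all genes tested were lower). These were Cux1, Cux2, Rorb, Rspo1, Mef2c, Lmo4, Pou3f2, Plcxd2 and Whrn. None of the 8 layer 5 genes passed downward, although 5 had negative fold changes, the largest that of Fezf2 at -0.79. Bcl11b was the 1 that passed upward (12.5%, where 1.22% of all genes were higher). Of the 11 genes of layer 6 and subplate, 2 fell, Tbr1 and Hs3st4 (18.2%), and none passed upward. The median log2 fold change, ipsilateral minus contralateral, was -0.67 in the upper-layer genes, -0.20 in the layer 5 genes and -0.14 in those of layer 6 and subplate, against 0.02 over all genes. Bright genes were called more often than dim ones: among the 13547 genes with a mean of at least 6 on the 10 arrays, a bound chosen after the data were seen, 8.95% were lower and 1.93% higher, and 32 of the 33 layer genes lay above it. Without the arrays numbered 2 and 4, which left 3 per side and called 0.959% of all genes lower, 2 upper-layer genes (Plcxd2 and Rspo1) and Tbr1 passed downward and Bcl11b upward (0.255% of all genes). Whole separation of the 5 ipsilateral from the 5 contralateral arrays was seen downward in 7 upper-layer genes and 3 of layer 6 and subplate (5.21% of all genes tested), and upward in Bcl11b (2.04%). The layer genes were chosen with earlier results of these data known, so these shares are descriptions and not independent evidence. The difference between the layer groups themselves was not tested. In whole tissue, fewer cells of a type and less RNA per cell cannot be told apart.

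**Figure D1:**
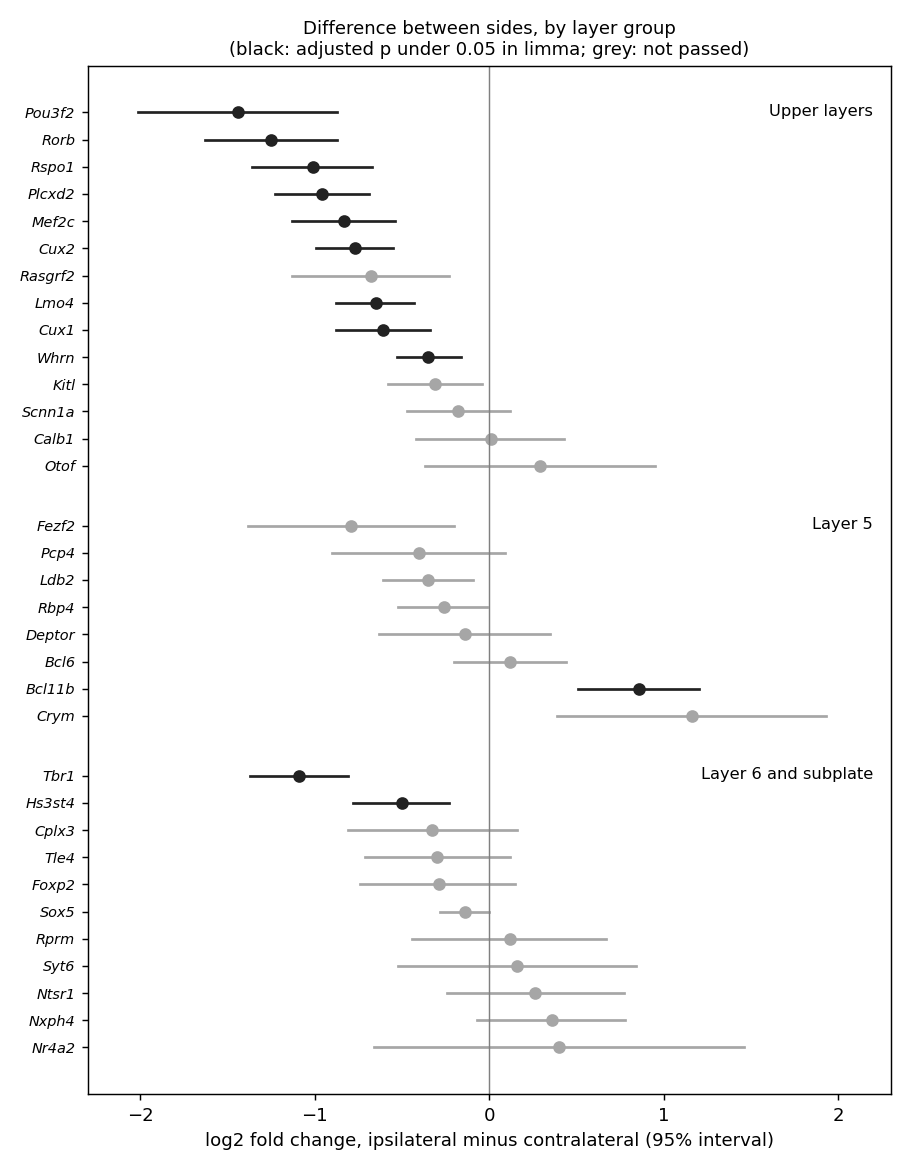
log2 fold change (ipsilateral minus contralateral, horizontal axis) of each measured layer gene with its 95% interval from limma, grouped by layer and ordered by size, black where adjusted p was under 0.05 and grey where it was not. The black points are 9 upper-layer genes from -1.44 (Pou3f2) to -0.35 (Whrn), Bcl11b at 0.86 in layer 5, and Tbr1 and Hs3st4 at -1.09 and -0.50 in layer 6 and subplate.

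The homeodomain factors Cux1 and Cux2 shape dendrites and spines of upper-layer neurons. Cux2 stood at 8.07, 7.65, 7.58, 7.56 and 7.61 on the ipsilateral arrays 1 to 5, and at 8.55, 8.37, 8.48, 8.37 and 8.55 on the contralateral arrays 1 to 5. The groups did not overlap, 4 ipsilateral arrays lay close together, and ipsilateral array 1 lay between them and the contralateral range. Its log2 fold change was -0.77 ± 0.10 (SE, limma adjusted p = 0.00197). Cux1 stood at 9.03, 8.29, 8.65, 8.55 and 8.69 ipsilaterally, against 9.37, 9.20, 9.24, 9.06 and 9.39 contralaterally. Here too array 1 was the highest on the ipsilateral side, and the groups were separated by a narrow gap. Cux1 fell by 0.61 ± 0.12 (adjusted p = 0.0171), a call that ended without contralateral replicate 1 (adjusted p = 0.0544).

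Pou3f2, also known as Brn2, is a POU-homeodomain factor of upper-layer neurons and had the largest fold change among the 33 layer genes. It stood at 9.29, 8.12, 8.52, 8.19 and 8.56 on ipsilateral arrays 1 to 5, and at 10.49, 10.09, 10.06, 9.21 and 10.02 on contralateral arrays 1 to 5. The groups overlapped through a single pair, since contralateral array 4 lay below ipsilateral array 1. The means were 8.54 ± 0.46 and 9.97 ± 0.47 (SD, n = 5 per side), and the log2 fold change was -1.44 ± 0.26 (SE, adjusted p = 0.00982 in limma). It passed in each of the 10 fits that left out 1 array.

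Rorb, a nuclear receptor that marks layer 4, stood at 10.77, 11.52, 11.90, 11.36 and 11.58 ipsilaterally, against 12.79, 12.70, 12.47, 12.69 and 12.72 contralaterally. All ipsilateral arrays were lower, array 1 the most, and the contralateral arrays were tightly grouped. Rorb fell by 1.25 ± 0.17 (adjusted p = 0.00291). Its second, dimmer row moved alike, by -0.96 ± 0.21 (adjusted p = 0.0236, over all rows that name 1 gene). Scnn1a, a sodium channel subunit used as another layer 4 marker, did not pass: it stood at 5.77, 6.15, 5.96, 6.13 and 6.36 ipsilaterally and 6.11, 6.47, 6.52, 5.95 and 6.20 contralaterally, with a log2 fold change of -0.18 (95% interval -0.47 to 0.12).

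Mef2c, an activity-responsive MADS-box factor that regulates synapse number, fell without overlap between the sides. It stood at 14.25, 13.86, 14.39, 13.75 and 13.71 on ipsilateral arrays and 14.96, 14.68, 14.85, 14.75 and 14.88 on contralateral arrays. The fall was 0.83 ± 0.13 (adjusted p = 0.00579). Lmo4, a LIM-domain transcriptional cofactor, stood at 9.80, 9.72, 9.42, 9.44 and 9.27 ipsilaterally, against 10.25, 10.09, 10.26, 10.11 and 10.21 contralaterally. Its groups were separate as well, and it fell by 0.65 ± 0.10 (adjusted p = 0.0048).

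Among the secreted and signalling genes, Rspo1, an R-spondin that amplifies Wnt signalling, and Plcxd2, a phospholipase C-like gene, fell. Rspo1 stood at 5.64, 5.70, 5.82, 5.42 and 5.71 ipsilaterally, against 6.95, 6.86, 6.41, 6.17 and 6.96 contralaterally. The ipsilateral arrays were uniform and the contralateral ones spread, with replicates 3 and 4 the lowest, and the fold change was -1.01 ± 0.16 (adjusted p = 0.00488). Plcxd2 stood at 10.81, 10.38, 10.40, 10.35 and 10.45 ipsilaterally, against 11.69, 11.27, 11.47, 11.14 and 11.61 contralaterally, again with ipsilateral array 1 the highest of its side. It fell by 0.96 ± 0.12 (adjusted p = 0.00197). Both kept an adjusted p under 0.05 without the arrays numbered 2 and 4 (0.042 and 0.0246). Whrn, which encodes the scaffold protein whirlin, fell by only 0.35 ± 0.08 (adjusted p = 0.0362). Its ipsilateral maximum equalled its contralateral minimum at 6.59, and it passed in 2 of the 10 fits that left out 1 array (adjusted p up to 0.0938).

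The remaining upper-layer genes did not pass. Rasgrf2, a Ras exchange factor, stood at 11.98, 11.51, 12.35, 11.19 and 11.19 on ipsilateral arrays, against 12.41, 12.23, 12.26, 12.43 and 12.29 on contralateral arrays, and had a log2 fold change of -0.68 (95% interval -1.13 to -0.23, adjusted p = 0.0839). Ipsilateral array 3 lay inside the contralateral range, and without it Rasgrf2 passed (-0.86, adjusted p = 0.0134). Kitl, the ligand of the Kit receptor, differed by -0.31 (95% interval -0.58 to -0.04, adjusted p = 0.171). The calcium buffer Calb1 had nearly equal means, 12.07 ± 0.43 and 12.06 ± 0.24 (log2 fold change 0.01, 95% interval -0.42 to 0.43), and Otof, a calcium sensor of vesicle release, differed by 0.29 (95% interval -0.37 to 0.95). In Calb1 and Otof, ipsilateral array 3 and contralateral array 4 were the highest of their sides, at 12.57 and 12.47 in Calb1 and 8.28 and 7.72 in Otof.

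**Figure D2:**
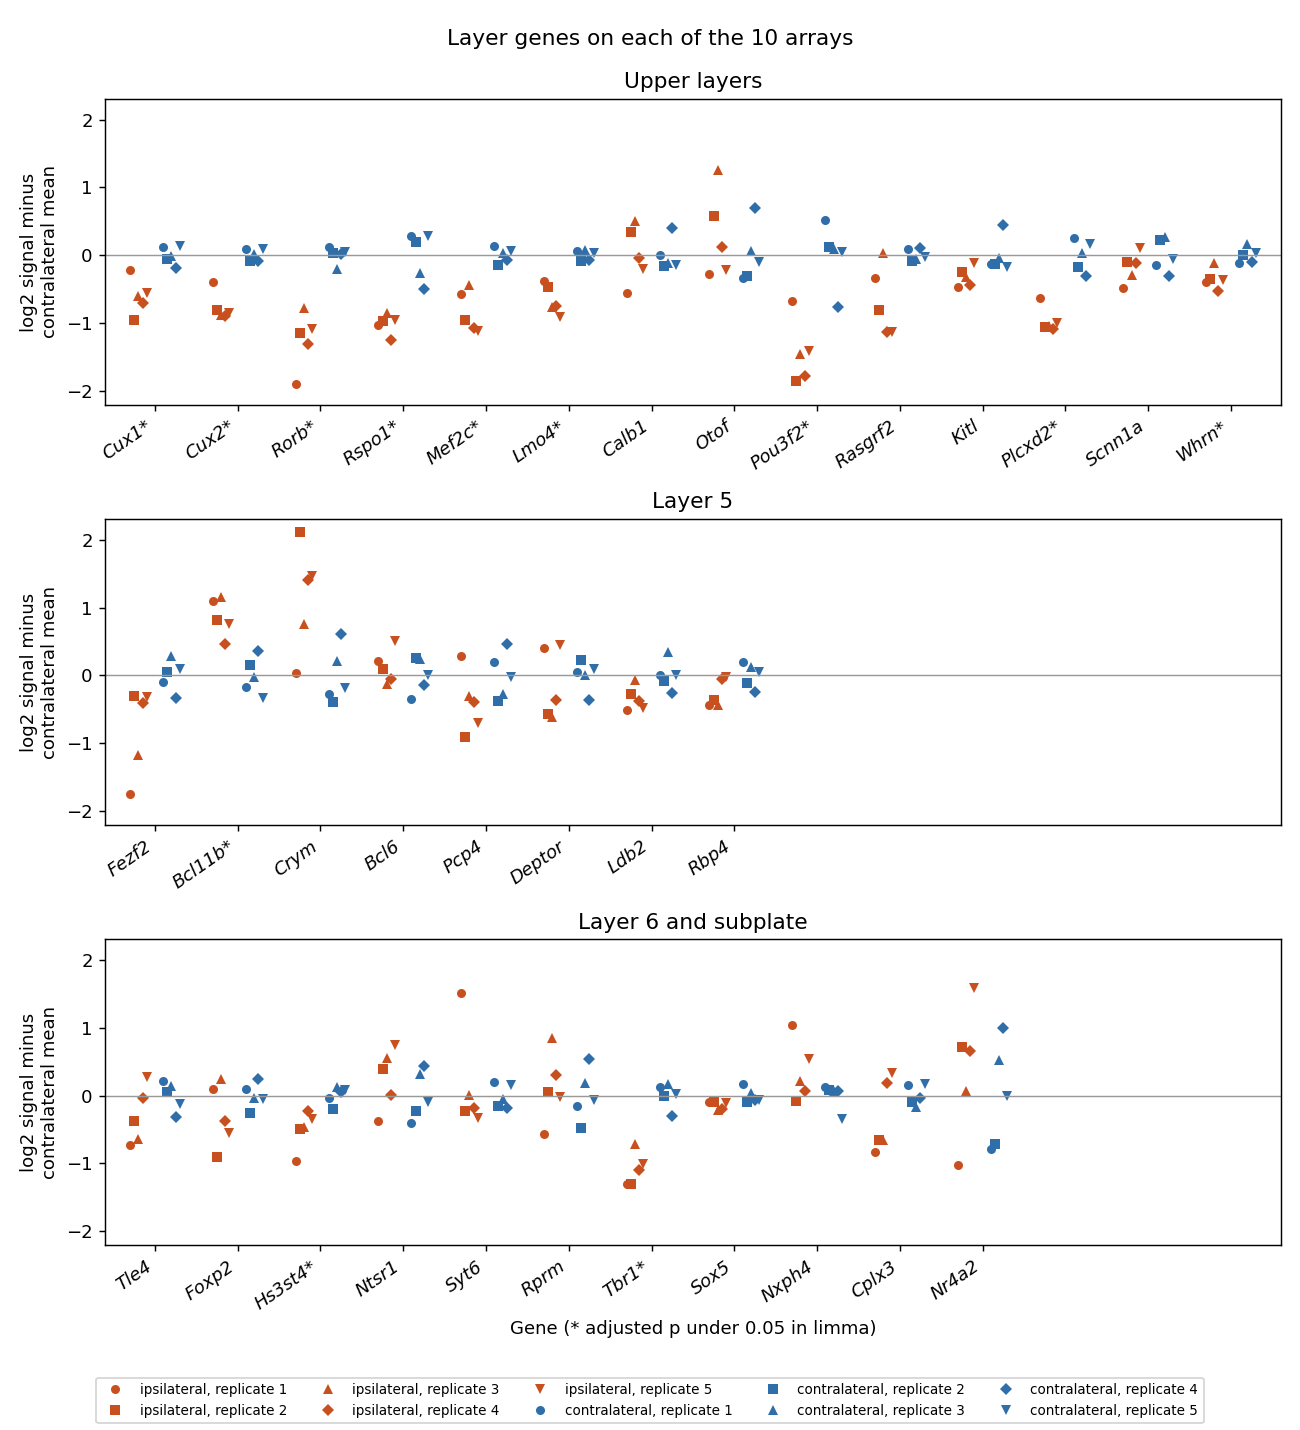
log2 signal of each measured layer gene on each array, minus the mean of its 5 contralateral arrays (vertical axis), for ipsilateral (orange, left of each tick) and contralateral arrays (blue, right), with replicate numbers as symbols and asterisks on genes with adjusted p under 0.05. Orange points of the 9 starred upper-layer genes lie below 0. In layer 5 those of Fezf2, Ldb2 and Rbp4 lie below 0, those of Bcl11b and Crym above it, and those of Bcl6, Pcp4 and Deptor on both sides. Most layer 6 and subplate genes have orange points on both sides of 0.

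In layer 5, Bcl11b, also called Ctip2, is the zinc-finger factor of corticospinal neurons, and it was the 1 layer gene that passed upward. It stood at 10.83, 10.55, 10.88, 10.19 and 10.49 on ipsilateral arrays, against 9.56, 9.89, 9.71, 10.09 and 9.40 on contralateral arrays. The groups did not overlap, although ipsilateral array 4, the lowest of its side, lay close to contralateral array 4, the highest of its side. The log2 fold change was 0.86 ± 0.16 (adjusted p = 0.0106), and 1.18 ± 0.14 (adjusted p = 0.0198) without the arrays numbered 2 and 4. Since Bcl11b is also a striatal gene, a list of striatal markers is given beside it: 6 of 8 measured markers had positive fold changes, none passed upward, the median was 0.46, and their mean log2 signal per array was 7.13 to 8.30 ipsilaterally and 7.01 to 7.30 contralaterally. The largest positive differences in this list were those of the opioid precursor Penk, 1.22 (adjusted p = 0.0589), and the dopamine receptor Drd2, 0.84 (adjusted p = 0.157). Pde10a (0.10) and Ppp1r1b (-0.02) differed little. The factor Foxp1, which layer neurons also express, fell by 0.72 ± 0.09 (adjusted p = 0.00161). The part of striatal tissue in the rise of Bcl11b was not tested.

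Fezf2, the zinc-finger factor upstream of Bcl11b in the specification of subcerebral neurons, had the opposite sign and did not pass. It stood at 10.24, 11.68, 10.81, 11.58 and 11.66 ipsilaterally, against 11.89, 12.03, 12.27, 11.65 and 12.07 contralaterally (log2 fold change -0.79, 95% interval -1.38 to -0.20, adjusted p = 0.122). Ipsilateral arrays 1 and 3 were far below the other 8 arrays, which lay between 11.58 and 12.27. Crym, which encodes a thyroid hormone-binding protein, stood at 8.23, 10.32, 8.96, 9.60 and 9.66 ipsilaterally, against 7.93, 7.81, 8.41, 8.81 and 8.02 contralaterally. Its difference of 1.16 was the largest positive one among the layer genes but did not pass (95% interval 0.39 to 1.93, adjusted p = 0.0829), as ipsilateral array 1 lay inside the contralateral range. It passed without ipsilateral replicate 1 (1.44, adjusted p = 0.0138).

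The other 5 layer 5 genes did not pass either. Ldb2, a LIM-domain-binding cofactor, differed by -0.35 (95% interval -0.61 to -0.09), the calmodulin regulator Pcp4 by -0.40 (95% interval -0.90 to 0.09) and the retinol-binding protein gene Rbp4 by -0.26 (95% interval -0.52 to -0.01). The mTOR inhibitor Deptor (-0.14) and the transcriptional repressor Bcl6 (0.12) had intervals that spanned 0. Adjusted p ran from 0.122 for Ldb2 to 0.779 for Deptor. Deptor was split on the ipsilateral side, with arrays 1 and 5 at 9.23 and 9.28 and arrays 2, 3 and 4 at 8.26, 8.22 and 8.47, around a contralateral range of 8.47 to 9.05.

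**Figure D3:**
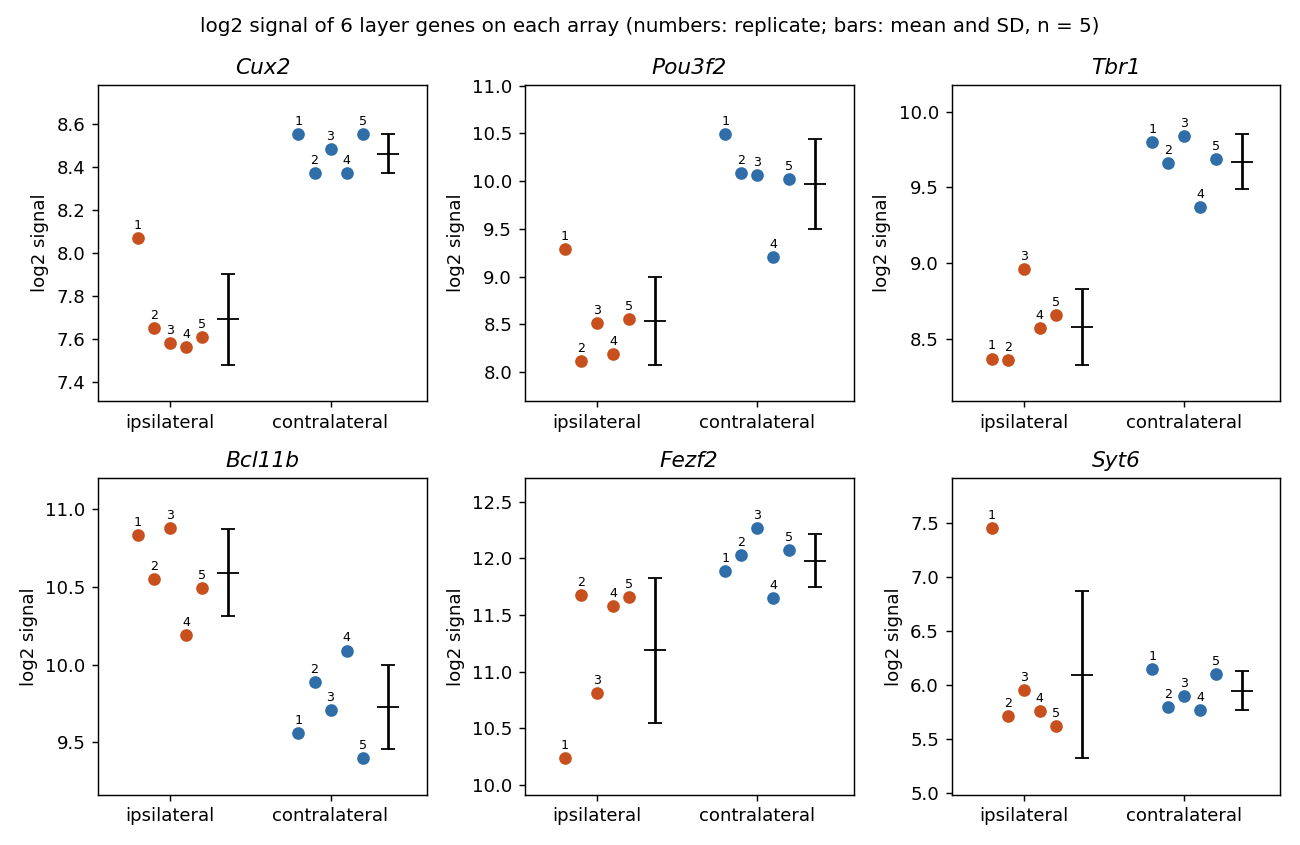
log2 signal (vertical axis) of Cux2, Pou3f2, Tbr1, Bcl11b, Fezf2 and Syt6 on each ipsilateral (orange) and contralateral (blue) array, numbered by replicate, with mean and SD (n = 5 per side). Cux2, Tbr1 and Bcl11b have separate groups, Pou3f2 overlaps through 1 pair of arrays, Fezf2 is low on ipsilateral arrays 1 and 3, and Syt6 is high on ipsilateral array 1.

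Tbr1, the T-box factor of corticothalamic neurons, had the smallest adjusted p of the layer genes. It stood at 8.37, 8.36, 8.96, 8.57 and 8.66 on ipsilateral arrays, against 9.80, 9.66, 9.84, 9.37 and 9.69 on contralateral arrays. No array of one side reached the other, and the fall was 1.09 ± 0.13 (adjusted p = 0.00152), or 1.11 ± 0.15 (adjusted p = 0.0298) without the arrays numbered 2 and 4. Adult Tbr1 is strongest in layer 6 but is also found in upper layers. Hs3st4, a heparan sulfate sulfotransferase, stood at 6.35, 6.81, 6.85, 7.08 and 6.96 ipsilaterally, against 7.28, 7.11, 7.43, 7.36 and 7.39 contralaterally. Its groups were separated by a narrow gap, it fell by 0.50 ± 0.13 (adjusted p = 0.0435), and it passed in 3 of the 10 fits that left out 1 array (adjusted p up to 0.111).

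The other 9 genes of layer 6 and subplate did not pass. The Groucho-type corepressor Tle4 stood at 10.45, 10.80, 10.54, 11.15 and 11.46 ipsilaterally, against 11.40, 11.23, 11.32, 10.87 and 11.06 contralaterally, with ipsilateral arrays above, inside and below the contralateral range. Its log2 fold change was -0.30 (95% interval -0.71 to 0.12), that of the forkhead factor Foxp2 -0.29 (95% interval -0.74 to 0.15) and that of the neurotensin receptor Ntsr1 0.26 (95% interval -0.24 to 0.77). Sox5, an SRY-related factor of deep-layer neurons, had groups that did not overlap (7.58 to 7.69 ipsilaterally and 7.70 to 7.96 contralaterally) but differed by only -0.14 ± 0.06 (adjusted p = 0.234). The cell-cycle arrest gene Rprm differed by 0.12 (95% interval -0.44 to 0.67) and was again highest on ipsilateral array 3 (10.33) and contralateral array 4 (10.02).

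Syt6, a synaptotagmin, stood at 7.46, 5.72, 5.96, 5.76 and 5.62 ipsilaterally, against 6.15, 5.80, 5.90, 5.77 and 6.11 contralaterally. Its difference of 0.16 (95% interval -0.52 to 0.84) came from ipsilateral array 1, and was -0.18 without it. Among the subplate genes, the complexin Cplx3 stood at 6.67, 6.85, 6.84, 7.69 and 7.83 ipsilaterally, against 7.65, 7.40, 7.33, 7.46 and 7.67 contralaterally. Arrays 1 to 3 were below and arrays 4 and 5 above all contralateral arrays, giving -0.33 (95% interval -0.81 to 0.16). Nr4a2, an orphan nuclear receptor that neuronal activity also induces, had the widest interval of the 33 genes and ranged from 10.31 to 12.93 ipsilaterally and from 10.55 to 12.33 contralaterally (difference 0.40, 95% interval -0.66 to 1.46). Nxph4, a neurexophilin, was dim, with all contralateral arrays (4.13 to 4.61) below every array's median, and its difference of 0.36 did not pass (adjusted p = 0.329).

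Averaged over genes, the upper-layer group separated the sides on every array. Taking each gene relative to its contralateral mean, the 14 upper-layer genes averaged -0.60, -0.63, -0.41, -0.78 and -0.70 on ipsilateral arrays 1 to 5, against 0.07, -0.05, 0.00, -0.05 and 0.03 on contralateral arrays 1 to 5. The 8 layer 5 genes averaged -0.08, 0.08, -0.10, 0.03 and 0.21 ipsilaterally and -0.05 to 0.12 contralaterally. The 11 genes of layer 6 and subplate averaged -0.30, -0.27, -0.07, -0.08 and 0.10 ipsilaterally and -0.19 to 0.13 contralaterally. The last 2 groups overlapped between sides, and within them positive and negative differences offset each other. No test was made of these averages, since the genes were chosen with earlier results known.

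**Figure D4:**
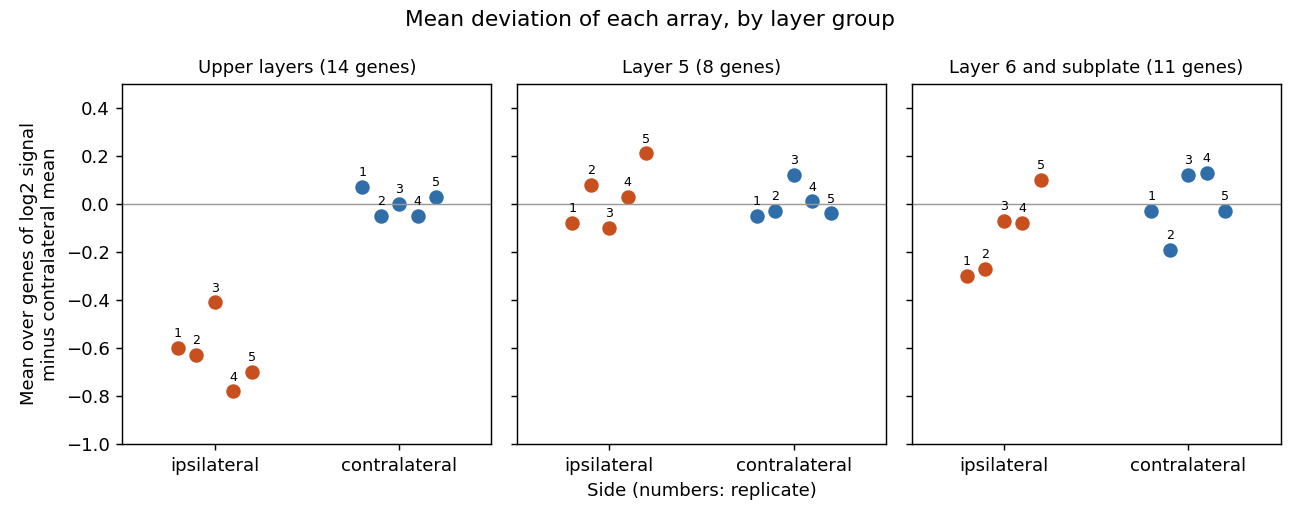
Mean over the genes of a layer group of log2 signal minus each gene's contralateral mean (vertical axis), for each ipsilateral (orange) and contralateral (blue) array, numbered by replicate. Upper-layer means lie between -0.78 and -0.41 ipsilaterally and between -0.05 and 0.07 contralaterally, while the other 2 groups overlap between sides.

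Replicate spread was compared between the sides as a description. The SD was larger ipsilaterally in 25 of the 33 layer genes (75.8%, against 63.6% of all genes tested and 67.8% of those with a mean of at least 6): 9 of 14 upper-layer, 6 of 8 layer 5, and 10 of 11 layer 6 and subplate genes. The median SD in layer 6 and subplate genes was 0.45 ipsilaterally and 0.19 contralaterally. It was 0.24 and 0.18 in upper-layer genes, and 0.16 and 0.12 over all genes tested. Ipsilateral array 1 was the lowest of its side in 15 and the highest in 9 of the 33 genes. It was highest for Cux1, Cux2, Lmo4, Pou3f2 and Plcxd2 but lowest for Rorb, Fezf2, Crym, Tle4, Hs3st4, Ntsr1, Rprm, Cplx3 and Nr4a2, among others. On the contralateral side array 4 was the lowest in 12 and the highest in 11 genes.

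Further genes of cortical neurons, from lists drawn up beside the layer genes, gave a mixed picture. For comparison, 4.33% of all genes tested were lower and 1.22% higher, or 8.95% and 1.93% of those with a mean of at least 6. Of 16 other layer-restricted genes, Lamp5, a membrane protein gene of upper layers and of a class of interneurons, fell by 2.24 ± 0.30 (adjusted p = 0.00238). Mdga1, an adhesion molecule of upper layers, rose by 0.74 ± 0.13 (adjusted p = 0.00936), as did Tcerg1l by 0.39 ± 0.08 (adjusted p = 0.0216) and Thsd7b by 0.31 ± 0.07 (adjusted p = 0.0336). Of the 10 fits that left out 1 array, Tcerg1l passed in 6 (adjusted p up to 0.0618) and Thsd7b in 4 (up to 0.0768), while Lamp5 and Mdga1 passed in all 10. The median of these 16 genes was -0.10, with 10 negative and 6 positive fold changes. Mdga1 thus moved opposite to the upper-layer genes that fell, at 6.97 ± 0.26 ipsilaterally and 6.23 ± 0.19 contralaterally (SD, n = 5 per side). Of 9 measured regulators of cortical projection neurons, Id2, an inhibitor of basic helix-loop-helix factors, fell by 0.86 ± 0.16 (adjusted p = 0.013), and 7 of 9 had negative fold changes, with Zbtb18 at -0.53 (adjusted p = 0.0679) and Emx1 at -0.26 (adjusted p = 0.0809).

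Values for the following lists are log2 fold changes, and their counts stand beside the same shares of 4.33% lower and 1.22% higher among all genes tested. Of 12 genes of excitatory neurons and neurons in general, Nrgn (-1.39), Homer1 (-1.44), Grin2a (-0.84) and the neuronal nuclear marker Rbfox3 (-0.54) fell and Gria1 (0.84) rose, with a median of -0.24. Slc17a7 (-0.25) and Snap25 (-0.13) did not pass. Of 10 interneuron genes Pvalb (-1.84) and Vip (-1.12) fell, and the median was -0.08. Of 10 measured immediate early genes, which neuronal activity induces, Arc (-3.44), Egr1 (-1.96), Dusp1 (-1.25) and Egr4 (-0.61) fell and the median was -1.12. Their mean signal per array was 9.48 on ipsilateral array 1, 7.28 to 8.24 on the other ipsilateral arrays, and 9.34 to 9.89 contralaterally. Array 1 was thus nearest to the contralateral level for the mean of these genes. Among the upper-layer genes that fell, array 1 was nearest for Cux1, Cux2, Lmo4, Pou3f2 and Plcxd2. For Rorb, Rspo1, Mef2c and Whrn array 3 was nearest, and array 1 was the farthest for Rorb. A link between the immediate early genes and the layer genes was not tested.

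Markers of other cells that the dissected tissue could hold are given beside all genes tested, of which 4.33% were lower and 1.22% higher. All 8 measured microglial markers had positive fold changes (median 0.84, none passed), with mean signals of 8.53 to 10.19 ipsilaterally and 8.11 to 8.74 contralaterally. Of 9 astrocyte markers 7 were positive and Aqp4, the astrocytic water channel, rose by 0.95 ± 0.18 (adjusted p = 0.0117). The 6 measured oligodendrocyte markers were all negative (median -0.97, none passed), with mean signals of 9.94 to 11.24 ipsilaterally and 10.42 to 11.88 contralaterally. Of 8 hippocampal genes Wfs1 (1.76) and Man1a (0.65) rose, of 9 thalamic genes Rora (-1.27) and Ramp3 (-0.91) fell, and none of 3 claustral or 5 endothelial genes passed. The rest of these lists did not all follow the named genes. The hippocampal list had 5 positive and 3 negative fold changes (median 0.42), and the thalamic list 4 positive and 5 negative (median -0.02). Man1a overlapped between the sides and passed in 3 of the 10 fits that left out 1 array (adjusted p up to 0.0864), while Wfs1 passed in all 10. Mean hippocampal signal per array was 6.92 to 8.15 ipsilaterally and 6.82 to 7.67 contralaterally. Mean thalamic signal was 8.19 on contralateral array 4, 7.23 to 7.52 on the other contralateral arrays and 7.45 to 7.72 ipsilaterally. The part of these cells and regions in the differences of the layer genes was not tested.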

How the data were processed

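The authors deposited 1 table of log2 signals with 65956 rows and 10 array columns, and the submitters' processing notes name Transcriptome Analysis Console 4.0 as the tool. Normalization and build are not given in the sources used here. Values of 1.97 to 19.93 fit a log2 scale. All columns were mapped to samples by name, and no pair of arrays was identical.

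GEO's platform annotation named 1 symbol for 30604 rows and several for 2146, and 33206 rows were unnamed here. Entrez identifiers of 22818 rows matched the RefSeq gene table of GRCm38.p6, which updated 827 symbols. The row with the highest 10-array mean was kept per gene, which left 30142 genes. Ipsilateral minus contralateral was fitted with limma 3.58.1 (R 4.3.3, statmod 1.5.0), lmFit and eBayes, without covariates. Adjusted p is Benjamini-Hochberg over all genes, two-sided, with a threshold of 0.05; values are ± SE for fold changes and ± SD for means. The p-values measure only the spread between these samples, and precision is limited by there being 5 arrays a side.

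Simulated data were drawn independently for each array from each gene's mean and pooled SD, with 200 changed genes among 30142. In them, 58.2%, 94% and 95.5% of changes of 0.5, 1 and 2 were recovered, with 7 false calls. Unequal spread between the sides and structure shared between arrays were not simulated, so these rates need not hold for the real data. Alternatives were a fixed or random replicate block, quantile and median scaling, a filter on the dimmest 25% of genes, the mean of a gene's rows, trended and robust variance, array weights and each array left out, and, added after seeing the data, the omission of the arrays numbered 2 and 4. The layer genes and the other lists were chosen with earlier results of these data known. All 33 measured layer genes are named. Of the other lists, the called members are named. Penk, Drd2, Pde10a, Ppp1r1b, Slc17a7, Snap25, Zbtb18, Emx1 and Ttr were added after their values were seen.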

Additional observations from a re-analysis of the deposited data

Results flagged for a closer look

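In 66 groups of 5 arrays (33 layer genes, 2 sides), 6 held 1 array far from the other 4, where about 1 in 20, or 3.3, would by chance. On ipsilateral array 1, Syt6 stood at 7.46 and the next highest array at 5.96, Cux2 at 8.07 and the next at 7.65, and Plcxd2 at 10.81 and the next at 10.45. On contralateral array 4, Kitl stood at 10.43 and the next array at 9.94, and Calb1 at 12.47 and the next at 12.07. Nxph4 stood at 4.13 on contralateral array 5, below the next array at 4.54, all under the array medians. The falls of Cux2 and Plcxd2 were larger without ipsilateral replicate 1 (-0.86 and -1.04).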

How the results depend on the processing

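The 12 layer gene calls all held with a random replicate block, quantile or median scaling, without the dimmest 25%, with the mean of a gene's rows, trended and robust variance or array weights. Same-numbered arrays' deviations from their side's mean correlated at -0.399 to 0.259, and no label ties the numbers, so they were not taken to pair samples. These correlations cannot exclude pairing, and the arrays numbered 2 and 4 were the high ones in Ttr on both sides. In a fit with a fixed replicate block, 769 genes were lower and 177 higher, 0 layer genes were higher (0 in layer 5) and 1 gene of layer 6 and subplate was lower: Bcl11b (adjusted p = 0.0553) and Hs3st4 (0.0615) did not pass; the fold changes were as in the fit without the block. Median scaling gave 2130 lower and 225 higher genes (9.55% higher, against 22%) and turned Calb1 to -0.06. Array weights gave 656 higher genes and 2 higher layer genes, both in layer 5 (Bcl11b and Crym), and Rasgrf2 passed (adjusted p = 0.0336). Without the arrays numbered 2 and 4, 289 genes were lower and 77 higher, 3 layer genes were lower (2 upper-layer and 1 of layer 6 and subplate), Calb1 stood at -0.0033 and Deptor at 0.03, and 4 of the 12 calls held; Cux1, Cux2, Rorb, Mef2c, Lmo4 and Pou3f2 had adjusted p from 0.0522 to 0.101 with fold changes between -1.40 and -0.54, Hs3st4 stood at -0.65 (0.13) and Whrn at -0.32 (0.256). Leaving out 1 array gave 740 to 1607 lower and 111 to 760 higher genes (740 and 111 without contralateral replicate 1, 795 and 124 without 3, 1039 and 185 without 2, 835 and 173 without 5, 878 and 183 without ipsilateral replicate 5, 760 higher without ipsilateral replicate 1), 8 to 11 lower and 1 to 2 higher layer genes, 7 to 10 lower upper-layer genes, 1 to 2 higher layer 5 genes, 1 to 2 lower genes of layer 6 and subplate, and changed the sign of Calb1 (-0.12 to 0.15), Syt6 (-0.18 to 0.28) and Rprm (-0.06 to 0.29), none of which was called. Apart from the construction of the smaller fits, the cause was not tested. Levels near the array medians, as in Nxph4, limit what its fold change shows.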
